A study of Mus musculus with 22 samples.

Results

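The genes described here are 9 that mark the Spp1/Trem2 macrophage state seen in scarred tissue: *Spp1*, *Gpnmb*, *Trem2*, *Cd9*, *Cd63*, *Lgals3*, *Fabp5*, *Lpl* and *Fn1*. They were taken by name, matched to their Ensembl identifiers, and all 9 of 9 were found among the 55421 genes counted in monocytes and the 31134 counted in macrophages. All 9 passed the filter on low counts in both cell types, and none was at 0 in any of the 22 samples. The mice were C57BL/6 and carried SP-CI73T, a mutant surfactant protein C made by alveolar type 2 cells, whose level was raised by tamoxifen through excision of a neomycin cassette by a tamoxifen-controlled Flp-O recombinase placed in Rosa26. Before tamoxifen the allele was hypomorphic, so that control cells also came from animals in which the mutant form could be made at a low level. The labels call the controls untreated, and the study gives them for the monocyte RNA-seq as mutants that received oil. Its methods also count tamoxifen treated mice lacking Flp-O as controls, and for the macrophages the kind is not given in the sources used here. Animals were 8 to 12 weeks old. Cells were sorted from collagenase digests of lavaged, perfused lungs as SigF+CD11b- alveolar macrophages (control n = 4, 3 d n = 3, 14 d n = 3) and as CD11b+Ly6Chi monocytes (n = 4 for control, 3 d and 14 d each). The values are bulk RNA-seq read counts, expressed as CPM, the count relative to the library's scaled total after TMM scaling within a cell type, and the comparison of each time with control asks how the genes differed after injury in sorted monocytes and in macrophages.

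Macrophages of this state gather at sites of fibrosis in lung and other organs, and they are often derived from recruited monocytes. TREM2 is a lipid-sensing receptor that signals through the adaptor TYROBP, and its shed ectodomain is released by ADAM proteases. Osteopontin, the product of *Spp1*, and fibronectin, the product of *Fn1*, are secreted matrix proteins that bind integrins, with CD44 as a further osteopontin receptor. GPNMB is a lysosomal and surface glycoprotein whose gene is a known target of MiT/TFE transcription factors. CD9 and CD63 are tetraspanins, of the plasma membrane and of late endosomes respectively, and galectin-3, encoded by *Lgals3*, is a sugar-binding protein secreted by macrophages. Lipoprotein lipase, encoded by *Lpl*, releases fatty acids from lipoproteins, and FABP5 carries fatty acids inside the cell.

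On GRCm38 the protein coding genes lie at chr5:104435118-104441050 (+) for *Spp1*, chr6:49036546-49070929 (+) for *Gpnmb*, chr17:48346401-48354147 (+) for *Trem2*, chr6:125460266-125494791 (-) for *Cd9*, chr10:128900989-128912822 (+) for *Cd63*, chr14:47367751-47386160 (+) for *Lgals3*, chr3:10012548-10016607 (+) for *Fabp5*, chr8:68880491-68907448 (+) for *Lpl* and chr1:71585520-71653200 (-) for *Fn1*. None is on a sex chromosome. The 250 bases before the RefSeq start site (GRCm38.p6) are shown for the 3 genes by which the state is most often recognised, since all 3 were higher in monocytes at 14 d and they can be read side by side. Capitals mark a match to TATAAA and, downstream of it, a match to GAGGAA in *Spp1*. In *Trem2* they mark the reverse complement of the latter motif and, nearest the start, a match to TGANTCA, and of the motifs searched *Gpnmb* holds only GGAA, which is left in lower case. The windows are chr5:104434861-104435110 (+) for *Spp1*, the upstream one of its RefSeq starts, chr6:49036268-49036517 (+) for *Gpnmb* and chr17:48346151-48346400 (+) for *Trem2*, each written 5′ to 3′.
Spp1: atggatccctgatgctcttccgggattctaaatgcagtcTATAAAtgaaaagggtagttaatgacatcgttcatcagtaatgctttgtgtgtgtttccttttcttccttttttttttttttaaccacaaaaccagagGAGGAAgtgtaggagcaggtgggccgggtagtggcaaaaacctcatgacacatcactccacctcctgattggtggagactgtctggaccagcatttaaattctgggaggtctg
Gpnmb: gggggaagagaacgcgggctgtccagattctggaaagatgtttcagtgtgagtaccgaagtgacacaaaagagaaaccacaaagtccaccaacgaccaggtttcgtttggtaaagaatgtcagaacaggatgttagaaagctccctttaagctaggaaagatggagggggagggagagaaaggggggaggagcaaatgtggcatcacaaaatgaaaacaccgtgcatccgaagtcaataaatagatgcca
Trem2: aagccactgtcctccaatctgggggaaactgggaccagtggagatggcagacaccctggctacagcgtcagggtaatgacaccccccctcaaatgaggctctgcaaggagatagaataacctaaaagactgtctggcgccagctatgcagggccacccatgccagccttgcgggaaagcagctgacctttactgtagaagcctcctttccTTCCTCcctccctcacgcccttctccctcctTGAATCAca

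RefSeq windows were matched for 6 of the 9 genes (*Spp1*, *Gpnmb*, *Trem2*, *Cd9*, *Cd63* and *Lgals3*), and both strands were searched. GAGGAA, a purine-rich motif of the kind bound by PU.1, was in 3 of the 6 (*Spp1*, *Cd63* and *Trem2*) and in 23.4% of 32536 mouse promoter windows of the same length. This motif was added to the search after the sequences had been seen. TGANTCA, the AP-1 motif, was in *Trem2* and in 6.73% of all windows, and CATGTG, the core of the M-box read by MiT factors, was in *Cd9* and in 12.3%. CACGTG, an E-box read by the same factors, was in 0 of 6 and in 6.04% of all windows. GGGCGG was in *Cd9* and *Lgals3* and in 33.0% of windows, and TATAAA was in *Spp1*, 211 to 206 bases before the start, and in 12.3%. The shorter GGAA, contained in GAGGAA, was in all 6 and in 93.4% of windows.

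Each monocyte library held 15451460 to 28789639 counts and each macrophage library 4610720 to 17074863, lowest in the 14 d macrophages (4610720 to 6838893), and 3 counts equalled 0.104 to 0.651 CPM. The 3 d monocytes stood apart, with 40119 to 41134 genes detected against 24775 to 32492 in the other monocyte samples. The 14 d macrophages, despite their low counts, had 27699 to 30627 genes detected against 21951 to 27616 in controls and 21499 to 26335 at 3 d. Their TMM scaling factors were 1.164 to 1.287, against 0.896 to 0.952 in the other macrophage samples. *Xist* had 552 to 4444 counts and Y-linked genes 0 to 3 in the control and 3 d samples of both cell types, against 1 to 32 and 433 to 3033 at 14 d, so that sex and the 14 d time cannot be told apart. The cell types were deposited as separate counts, so that cell type and processing cannot be told apart either. The monocytes held their defining *Ly6c2* at 1320 to 3440 CPM against 1.18 to 6.18 in macrophages, and control macrophages held *Siglecf* at 230 to 347 CPM. *Itgam*, which encodes the CD11b that the macrophage gate excluded, was at 0.728 to 2.65 CPM in control macrophages and at 54.8 to 102 CPM in 14 d macrophages, so the label CD11b- was not matched by the transcript at 14 d. In such bulk samples a larger share of cells of a type and more RNA per cell cannot be told apart.

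In CD11b+Ly6Chi monocytes 8 of the 9 genes rose at 14 d. The rise was 145.7-fold for *Spp1*, 22.7-fold for *Cd63*, 9.10-fold for *Gpnmb*, 6.80-fold for *Fabp5*, 3.06-fold for *Trem2*, 3.02-fold for *Lpl*, 2.60-fold for *Fn1* and 1.72-fold for *Lgals3*. *Cd9* did not pass the test (log2 fold change 0.66 ± 0.56 SE, adjusted p = 0.54). Genes were called at an adjusted p under 0.05 and a fold change above 1.5 by edgeR's quasi-likelihood test with Benjamini-Hochberg adjustment over all 22353 genes, two-sided, and all adjusted p-values below are from this test. Over all genes tested 8.42% were called in this comparison, 3.13% as higher, and the 9 genes had a median log2 fold change of 1.61 beside 0.07 for all. For 7 of the 9 (not *Cd9* or *Lpl*) every 14 d sample was above every control, as was so for 5.74% of all genes. All 9 log2 fold changes were positive under every alternative run, but the number called was 4 with no filter on low counts and 4 with glmTreat, which tests against the 1.5-fold threshold itself. It was also 4 without control monocyte sample 2, 5 without control sample 4 and 5 without 14 d sample 3, with *Spp1* and *Trem2* called throughout.

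In SigF+CD11b- macrophages the same 9 genes split at 14 d. *Spp1* (4.08-fold), *Fn1* (1.74-fold) and *Trem2* (1.57-fold) rose, while *Cd9*, *Gpnmb*, *Fabp5*, *Lgals3* and *Lpl* fell to between 0.327 and 0.594 of control, and *Cd63* did not pass (log2 fold change 1.05 ± 0.49 SE, adjusted p = 0.0842). Of 20944 genes 62.3% were called in this comparison, 39.4% as higher and 22.9% as lower, so that 8 called of 9 stands beside a background in which most genes were called. No gene of the 9 overlapped between control and 14 d: 4 were higher and 5 lower in every 14 d sample, beside 40.2% and 30.6% of all genes. The falls of *Cd9* and *Gpnmb* were called under every alternative, but those of *Lgals3*, *Fabp5* and *Lpl* rested on the scaling. With library size scaling, which moved the median log2 fold change of all genes from 0.175 to 0.604, 4 genes were called higher (*Cd63* among them) and 2 lower, and with glmTreat 3 genes were called. In all, *Cd63* was called as higher in 9 alternatives, DESeq2, the other scalings and the fit of only the groups compared among them. The 14 d macrophages also held markers of other cells: fibroblast genes summed to 164 to 358 CPM against 20.1 to 25.4 in controls (8 of 8 rose), neutrophil genes to 425 to 1681 against 114 to 232 (7 of 8 tested rose) and eosinophil and basophil genes to 40.7 to 110.0 against 1.92 to 4.78 (7 of 7 rose). Of 13 resident alveolar macrophage genes 10 fell and none rose. Of 11 Ly6Chi monocyte genes 7 rose and none fell, but *Fn1*, which also belongs to the 9, is among the 7. Of 11 monocyte-derived and interstitial macrophage genes 5 rose and 3 fell, with *C1qb* at 94.0 to 201 CPM against 0.463 to 3.46 CPM in controls. The part of these in the changes of the 9 genes was not tested.

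**Figure D1:**
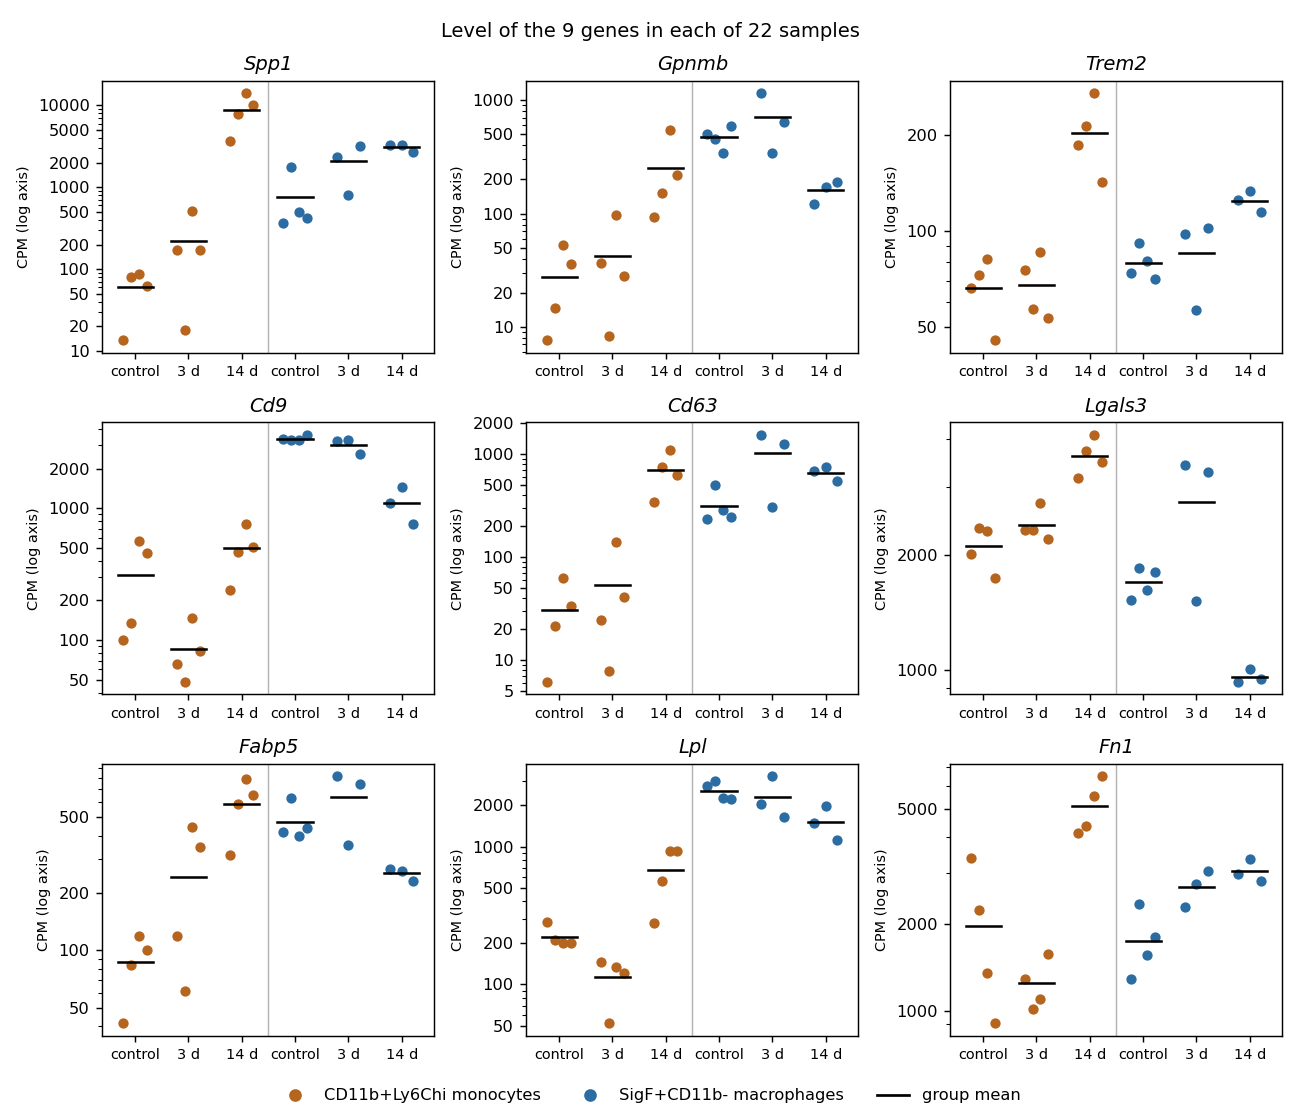
CPM on a log axis for each of the 9 genes in 12 monocyte samples (brown) and 10 macrophage samples (blue), with 1 point per sample and a bar at the group mean. In monocytes the 14 d points of *Spp1*, *Gpnmb*, *Trem2*, *Cd63*, *Lgals3*, *Fabp5* and *Fn1* lie above all control points, while in macrophages those of *Gpnmb*, *Cd9*, *Lgals3*, *Fabp5* and *Lpl* lie below them.

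Among the secreted matrix proteins, *Spp1* moved most. In monocytes it was at 13.5, 80.8, 88.4 and 62.1 CPM in the 4 controls, at 169, 17.9, 511 and 173 CPM at 3 d, and at 3649, 7808, 14020 and 10160 CPM at 14 d. Even the lowest 14 d sample was above every control and 3 d sample, with a mean of 8910 ± 4342 CPM (SD, n = 4) against 61.2 ± 33.7 CPM (SD, n = 4) in controls, a log2 fold change of 7.19 ± 1.06 (SE, adjusted p = 0.00151). Macrophages held 368, 1754, 500.0 and 420 CPM in controls, 2366, 796 and 3197 CPM at 3 d, and 3315, 3289 and 2700 CPM at 14 d. Control sample 2 stood above the other controls, and 3 d sample 2 lay below the other 3 d samples and within the control range. The macrophage rise at 14 d was 2.03 on the log2 scale (SE 0.66, adjusted p = 0.0245), and it was not called without control sample 3 or 4, 3 d sample 1 or any one of the 14 d samples (adjusted p up to 0.0646 over these fits), while without control sample 2 it was 2.94 (adjusted p = 0.000222). Of the summed CPM of the 9 genes, *Spp1* made up 0.227% to 1.83% in control monocytes and 29.4% to 50.0% at 14 d, and 3.5% to 12.6% in control macrophages and 26.6% to 30.2% at 14 d.

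*Fn1* was already abundant in control monocytes, at 3386, 2227, 1357 and 906 CPM, and it reached 4122, 4347, 5552 and 6480 CPM at 14 d. The 3 d samples lay at 1293, 1015, 1102 and 1568 CPM, inside the control range. Every 14 d sample was above the controls, although control samples 1 and 4 differed from each other by more than the 14 d samples did, and the log2 fold change was 1.38 ± 0.32 (SE, adjusted p = 0.0152), not called without 14 d sample 3 or 4 (adjusted p up to 0.053). Macrophage controls had 1286, 2340, 1562 and 1804 CPM, the 3 d samples 2281, 2750 and 3036 CPM and the 14 d samples 2974, 3359 and 2808 CPM. The 14 d macrophages were all above controls (log2 fold change 0.80 ± 0.18 SE, adjusted p = 0.00129), whereas 3 d sample 1 overlapped them. Exons of *Spp1* share 309 bases with *Gm42793* on the same strand (540 and 201 counts over all monocyte and macrophage samples). Those of *Fn1* share 292 bases with *Apol7d* on the opposite strand (251 and 6915 counts over all monocyte and macrophage samples). Whether counting used strand, in either cell type, is not given in the sources used here.

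Of the receptors, *Trem2* gave the tightest groups. Its monocyte levels were 66.3, 72.6, 81.7 and 45.4 CPM in controls, 75.6, 56.9, 86.0 and 53.3 CPM at 3 d and 187, 214, 271 and 142 CPM at 14 d. Control and 3 d samples overlapped throughout, and all 14 d samples were higher, by 1.61 ± 0.23 on the log2 scale (SE, adjusted p = 0.000511). In macrophages it was at 73.8, 91.5, 80.6 and 70.9 CPM in controls, at 97.9, 56.6 and 102 CPM at 3 d and at 125, 134 and 115 CPM at 14 d (log2 fold change 0.65 ± 0.18 SE, adjusted p = 0.00418). All 14 d macrophages were above controls, yet the call was lost with no filter on low counts, in a fit of only those groups, with glmTreat, and without any one of the 3 d samples or 14 d sample 2, where the adjusted p was at most 0.0196 and the fold change was under 1.5.

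*Gpnmb* went in opposite directions in the cell types. Monocyte samples held 7.59, 14.6, 53.1 and 35.7 CPM in controls, 36.6, 8.38, 96.6 and 27.9 CPM at 3 d and 92.8, 153, 547 and 218 CPM at 14 d. The 14 d samples spread more widely than the controls but did not overlap them (log2 fold change 3.19 ± 0.86 SE, adjusted p = 0.0418). That call was the least secure of the 8, since it was lost in 10 of the 12 fits with 1 monocyte sample left out (adjusted p 0.0223 to 0.145 over those 12 fits), and the log2 fold change was 2.48 without 14 d sample 3. Macrophage samples held 499, 451, 345 and 594 CPM in controls, 1149, 341 and 647 CPM at 3 d and 121, 172 and 190.1 CPM at 14 d. All 14 d macrophages were below controls, by 1.55 ± 0.36 on the log2 scale (SE, adjusted p = 0.00307).

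The tetraspanins *Cd63* and *Cd9* differed from each other. For *Cd63* the monocyte values were 6.19, 21.3, 63.0 and 33.6 CPM in controls, 24.8, 7.86, 142 and 41.1 CPM at 3 d and 339.9, 749, 1093 and 632 CPM at 14 d. Its 14 d samples were all far above the others (log2 fold change 4.50 ± 0.95 SE, adjusted p = 0.0125), a call lost without control sample 2 or 4 (adjusted p up to 0.0646), and 5.15 on the log2 scale without control sample 3. In macrophages it was at 236, 499.7, 289 and 243 CPM in controls, 1537, 308 and 1258 CPM at 3 d and 687, 741 and 545 CPM at 14 d, so that 2 of the 3 d samples were the highest and the third was among the controls. *Cd63-ps*, a pseudogene 98.0% identical over 858 bases and so able to share its reads, received 636 counts over all monocyte and 620 over all macrophage samples.

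*Cd9* was the only gene of the 9 not called in monocytes at 14 d against control. Controls had 99.9, 135, 566 and 456 CPM, 3 d samples 66.0, 48.2, 147 and 83.3 CPM, and 14 d samples 240.3, 469.7, 764 and 512 CPM. The controls themselves fell apart, with samples 1 and 2 below all 14 d samples and samples 3 and 4 among them. Those same control samples 3 and 4 held the alveolar macrophage genes *Siglecf* at 28.2 and 19.4 CPM, *Krt79* at 62.5 and 34.7 CPM and *Cidec* at 52.1 and 24.5 CPM, against 3.51 to 3.88, 2.39 to 4.57 and 3.19 to 3.34 CPM in controls 1 and 2. *Chil3*, of the same list but also made by monocytes, did not follow. It was at 14800 and 8750 CPM in controls 1 and 2 and at 10100 and 7010 CPM in controls 3 and 4. *Cd9* itself was at 3276 to 3614 CPM in control macrophages. With control samples 3 and 4 left out, a choice made after the data were seen, the 14 d against control log2 fold change of *Cd9* in monocytes was 2.12 (adjusted p = 0.0547) in place of 0.66, and 4 of the 9 genes were called (*Spp1*, *Trem2*, *Lgals3* and *Fn1*) with only control samples 1 and 2 remaining. The log2 fold changes of *Gpnmb* (4.55, adjusted p = 0.0795), *Cd63* (5.72, adjusted p = 0.0596) and *Fabp5* (3.27, adjusted p = 0.0804), which lost their calls, were larger in that fit, while *Lpl* was at 1.48 (adjusted p = 0.16) and *Fn1* at 0.90. In macrophages *Cd9* showed the smallest control spread of the 9 genes relative to its mean, at 3356, 3276, 3287 and 3614 CPM, then 3260, 3278 and 2566 CPM at 3 d and 1089, 1462 and 762 CPM at 14 d. It fell at 14 d (log2 fold change -1.62 ± 0.19 SE, adjusted p = 8.97e-06), with all 14 d samples below all others. Its exons share 218 bases with *Gm26728* on the opposite strand, to which 91474 reads were assigned over the 10 macrophage samples and 249 over the 12 monocyte samples.

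*Lgals3* was the most abundant of the 9 per length in control monocytes. It was at 2006, 2346, 2307 and 1737 CPM in monocyte controls, 2322, 2323, 2731 and 2198 CPM at 3 d and 3172, 3711, 4098 and 3487 CPM at 14 d. Although the change was the smallest of the 8 that were called, the 14 d samples stood clear of all others (log2 fold change 0.79 ± 0.13 SE, adjusted p = 0.00142). Macrophages had 1524, 1849, 1621 and 1804 CPM in controls, 3416, 1515 and 3287 CPM at 3 d and 932, 1006 and 948 CPM at 14 d. The log2 fold change at 14 d was -0.82 ± 0.22 (SE, adjusted p = 0.00366), and 3 d samples 1 and 3 were higher than every other macrophage sample.

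The lipid-handling genes *Fabp5* and *Lpl* both rose in 14 d monocytes and fell in 14 d macrophages. *Fabp5* was at 41.5, 84.0, 120 and 101 CPM in control monocytes, 119, 61.2, 446 and 348 CPM at 3 d and 315, 588, 796 and 653 CPM at 14 d. Its 3 d samples were split, 2 near the controls and 2 inside the 14 d range, and the 14 d samples were all above controls (log2 fold change 2.77 ± 0.58 SE, adjusted p = 0.0105, and 0.0552 without control sample 2). In macrophages it was at 417, 630, 400.0 and 436 CPM in controls, 819, 358 and 746 CPM at 3 d and 269, 260 and 232 CPM at 14 d (log2 fold change -0.89 ± 0.24 SE, adjusted p = 0.00477). Copies of *Fabp5* that could share its reads, *Gm6166* (98.3% identical) and *Gm14328* (97.3%), had 487 and 136 counts over the monocyte and 191 and 125 over the macrophage samples. *Lpl* was at 284, 210, 198 and 199 CPM in control monocytes, 146, 52.2, 133 and 121 CPM at 3 d and 278, 566, 921 and 926 CPM at 14 d, where 14 d sample 1 fell just under control sample 1. Its log2 fold change at 14 d was 1.60 ± 0.36 (SE, adjusted p = 0.013), lost without control sample 2, 3 or 4 or 14 d sample 3 (adjusted p up to 0.0555). Macrophages held *Lpl* at 2743, 2983, 2245 and 2232 CPM in controls, 2034, 3238 and 1627 CPM at 3 d and 1471, 1962 and 1109 CPM at 14 d (log2 fold change -0.75 ± 0.23 SE, adjusted p = 0.00953).

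**Figure D2:**
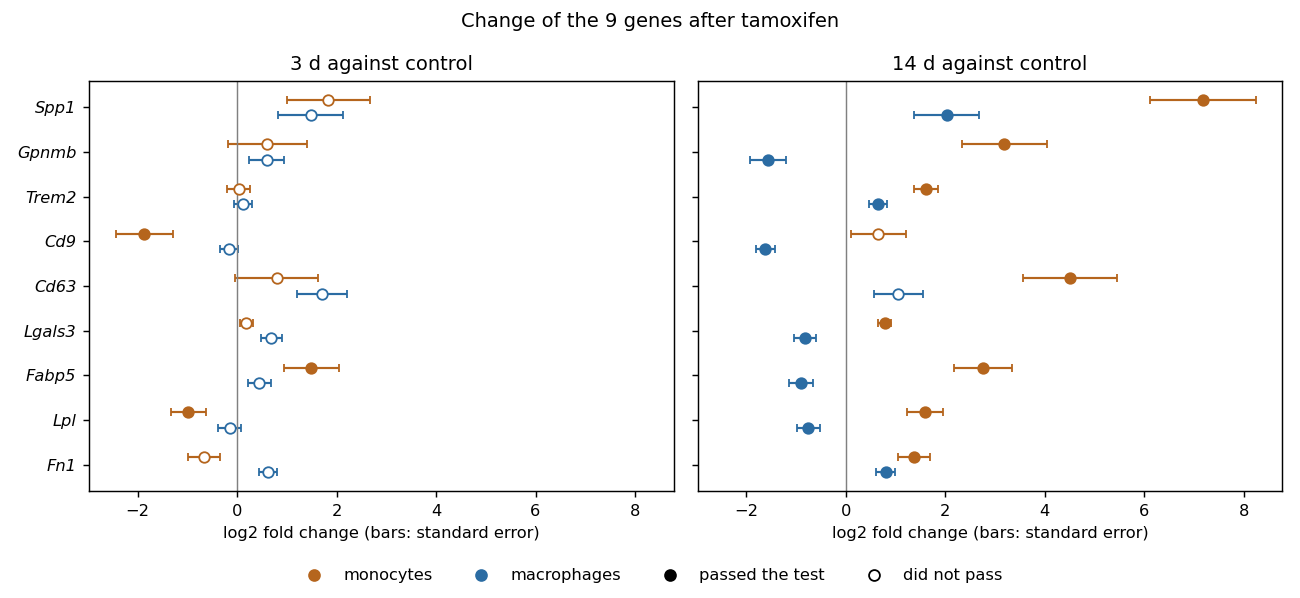
Log2 fold change against control with its standard error for the 9 genes at 3 d (left) and 14 d (right), monocytes in brown and macrophages in blue, filled where the gene passed the test. At 14 d all 9 monocyte points are right of 0 and 8 are filled, while 5 filled macrophage points are left of 0.

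At 3 d few of the 9 genes differed from control. In monocytes *Fabp5* rose (log2 fold change 1.49 ± 0.56 SE, adjusted p = 0.0386) and *Cd9* (-1.87 ± 0.57 SE, adjusted p = 0.0169) and *Lpl* (-0.98 ± 0.36 SE, adjusted p = 0.0335) fell, 3 of 9 beside 49.4% of all genes called. *Lpl* was the only one of the 9 with no overlap, all 3 d samples being below the controls. Over all genes 12.4% were lower and 37.4% higher in every 3 d sample than in every control. The call of *Fabp5* was lost in 10 of the 12 fits with 1 sample left out. The calls also followed the scaling: library size scaling, which moved the median of all genes from 0.278 to 0.693, gave 3 higher and 0 lower, and 1 gene was called with a filter that kept mean log2 CPM above 1, with glmTreat, without control sample 1, without 3 d sample 3, or without control samples 3 and 4. In that last fit the called gene was *Fn1* (-1.29, adjusted p = 0.0013) and *Cd9* was at -0.56 (adjusted p = 0.372). *Spp1* in monocytes did not pass (log2 fold change 1.83 ± 0.84 SE, adjusted p = 0.0852), with 3 of 4 samples above and 1 within the control range.

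In macrophages none of the 9 was called at 3 d, beside 1.27% of all genes, while 3 had an unadjusted p under 0.05 and DESeq2 called 3 (*Cd63*, *Lgals3* and *Fn1*). Sample 2 at 3 d was the lowest of the 3 for *Spp1*, *Gpnmb*, *Trem2*, *Cd63*, *Lgals3* and *Fabp5*, below all controls for *Gpnmb*, *Trem2*, *Lgals3* and *Fabp5* and within their range for *Spp1* and *Cd63*. Without it 4 genes were called as higher, namely *Gpnmb*, *Cd63*, *Lgals3* and *Fabp5*, and without control sample 2 *Spp1* and *Fn1* were. The 1.27% of all genes belongs to the fit of all samples and is not the background of these fits. Leaving out single samples changed the number called over all genes, which was highest without 3 d sample 2. The same 3 d sample 2 kept *Siglecf* at 321 CPM, within the control range (230 to 347 CPM). Its *Cidec*, at 266 CPM, was just under the controls (283 to 592 CPM). In 3 d samples 1 and 3 *Siglecf* was at 170 and 124 CPM and *Cidec* at 114 and 108 CPM. *Krt79* differed less, at 765 CPM in sample 2 and 630 and 594 CPM in samples 1 and 3. *Chil3* went the other way, at 19300 CPM in sample 2 and 22800 and 47500 CPM in samples 1 and 3. None of the 13 resident alveolar macrophage genes was called at 3 d. The part of these markers in the values of the 9 genes was not tested.

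Between 3 d and 14 d, 8 of the 9 genes rose in monocytes (45.2% of all genes called, 9.10% as higher). *Cd9* was among them (log2 fold change 2.53 ± 0.59 SE, adjusted p = 0.00569), as were *Lpl* (2.57 ± 0.38 SE, adjusted p = 0.000719) and *Fn1* (2.04 ± 0.33 SE, adjusted p = 0.001), the 3 genes whose log2 fold changes at 3 d were negative. *Fabp5*, the 1 gene that was higher at 3 d, did not pass (1.27 ± 0.55 SE, adjusted p = 0.0733). *Lgals3*, at 1.51-fold, was just past the fold threshold and lost its call in 8 of 23 alternatives. Without 3 d sample 3 the log2 fold changes were 6.22 for *Spp1* in place of 5.35, 3.38 for *Gpnmb* in place of 2.58 and 4.85 for *Cd63* in place of 3.71, and without 14 d sample 3 *Gpnmb* was at 1.92 (adjusted p = 0.0769). In macrophages 5 genes fell over the same interval (56.4% of all genes called, 20.0% as lower): *Gpnmb* by 2.15, *Lgals3* by 1.51, *Cd9* by 1.46, *Fabp5* by 1.34 and *Lpl* by 0.60 on the log2 scale, the last lost in 14 of 21 alternatives. No macrophage gene of the 9 was called as higher at 14 d than at 3 d, and *Spp1* was 0.55 ± 0.70 (log2 fold change, SE, adjusted p = 0.521). *Trem2* was higher in every 14 d sample than in every 3 d sample, at 1.45-fold (adjusted p = 0.0226), under the fold threshold, and it was called in 8 of 21 alternatives, DESeq2 and the other scalings among them. These comparisons share their 14 d samples with those against control.

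The difference between the cell types in the response was tested directly, in a fit of all 22 samples with its own scaling. It therefore does not exactly equal the log2 fold changes of the separate fits subtracted. At 14 d it was called for 8 of the 9 genes, the monocyte log2 fold change minus the macrophage one being above 0 each time, beside 37.2% of all genes called and 20.1% in that direction. It was largest for *Spp1* (5.48 ± 1.26 SE on the log2 scale, adjusted p = 0.00329), *Gpnmb* (5.08 ± 1.10 SE, adjusted p = 0.00221) and *Fabp5* (4.00 ± 0.76 SE, adjusted p = 0.000696). It was 3.79 for *Cd63*, 2.71 for *Lpl*, 2.63 for *Cd9*, 1.97 for *Lgals3* and 1.33 for *Trem2*. For *Cd9* (0.66 in monocytes, -1.62 in macrophages) and *Lgals3* (0.79 and -0.82) the macrophage change was at least as large in size, with the opposite sign. The *Trem2* difference was lost with library size, upper quartile or TMM subset scaling and with the filter that kept mean log2 CPM above 1, down to 0.47. Single samples moved the values to 4.71 for *Spp1* (without control macrophage sample 2), 4.37 for *Gpnmb* (without 14 d monocyte sample 3) and 4.4 for *Cd63* (without control monocyte sample 3). *Fn1*, which rose in both cell types, did not pass (0.94 ± 0.40 SE, adjusted p = 0.0675). With TMM factors from genes above a mean log2 CPM of 5, where the median of all genes moved from -0.487 to -1.336, 5 were called, and no direction changed under any alternative. At 3 d the difference was called for *Fn1* alone (-1.16 ± 0.40 SE, adjusted p = 0.0452), at -0.66 in monocytes and 0.62 in macrophages, neither of them called, beside 18.9% of all genes, and this call was lost in 25 of 34 alternatives.

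In controls most of the 9 genes were more abundant in macrophages. Of them 6 were higher in macrophages than in monocytes (43.7% of all genes called, 23.9% as higher): *Gpnmb* 12.9-fold, *Spp1* 9.33-fold, *Lpl* 8.79-fold, *Cd9* 8.21-fold, *Cd63* 7.72-fold and *Fabp5* 4.13-fold. *Lgals3* was lower in macrophages (log2 difference -0.69 ± 0.18 SE, adjusted p = 0.00236), and *Trem2* (-0.13 ± 0.22 SE, adjusted p = 0.657) and *Fn1* (-0.55 ± 0.27 SE, adjusted p = 0.105) did not pass. Without control monocyte samples 3 and 4 *Fn1* was called as lower in macrophages (-1.11, adjusted p = 0.000125), and the log2 differences of *Gpnmb* (5.02), *Cd9* (4.44) and *Cd63* (4.15) were larger. That of *Spp1* was 2.44 without control macrophage sample 2, and that of *Cd63* was 3.56 without control monocyte sample 3. The call of *Lgals3* was lost in 8 alternatives, among them library size scaling, TMM subset scaling, no filter and any one 3 d macrophage sample left out. By 14 d none was higher in macrophages and 5 were lower (63.2% of all genes called, 23.5% as lower): *Lgals3* by 2.65, *Spp1* by 2.26, *Fabp5* by 1.96, *Fn1* by 1.49 and *Trem2* by 1.46 on the log2 scale. The 14 d call of *Spp1* (adjusted p = 0.0387) was lost in 14 alternatives, with a log2 difference as small as -1.14. Among these were library size, upper quartile and TMM subset scaling, glmTreat and any one 3 d or 14 d macrophage sample left out. Scaling bears on these contrasts, since library size scaling moved the 14 d median of all genes from 0.94 to 2.02 and left 3 calls, 2 of them higher in macrophages and 1 lower. *Cd9* and *Fn1* also share exon bases with opposite-strand genes that drew more reads in macrophages, and the part of this was not tested.

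Per length of merged exons (RPKM, which is CPM divided by length), the order of the genes changed with time in monocytes. This length joins the exons of all annotated transcripts, with 3567 bases in 2 merged exons for *Fabp5* and 1648 bases for *Spp1*. It can exceed the length of the transcripts made, and no other length was tried, so the order between genes and the ranks depend on this choice. In controls *Lgals3* led at 1130 RPKM, without overlap with the next, *Fn1* at 169 RPKM, and *Fn1*, *Cd9*, *Spp1*, *Fabp5* and *Lpl* followed with each overlapping its neighbour. Below *Lpl*, and without overlap with it, came *Trem2* (13.4 RPKM), *Cd63* (8.42 RPKM) and *Gpnmb* (4.26 RPKM). At 14 d *Spp1* was first at 5407 RPKM and did not overlap *Lgals3* at 1947 RPKM, which did not overlap *Fn1* at 439 RPKM. *Cd9*, *Cd63*, *Fabp5*, *Lpl*, *Trem2* and *Gpnmb* came next, each overlapping its neighbour. Among 22330 monocyte genes with a length, *Spp1* ranked 1563 in controls, 392 at 3 d and 9 at 14 d, and *Cd63* ranked 4465, 2461 and 344. In control macrophages *Cd9* came first at 1655 RPKM, apart from *Lgals3* at 915 RPKM, and *Gpnmb* (72.5 RPKM) and *Trem2* (16.0 RPKM) came last and did not overlap each other. At 14 d *Spp1* was first there also, at 1882 RPKM against 540.3 RPKM for *Cd9*, and it ranked 14 of 20922 genes against 120 in controls.

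**Figure D3:**
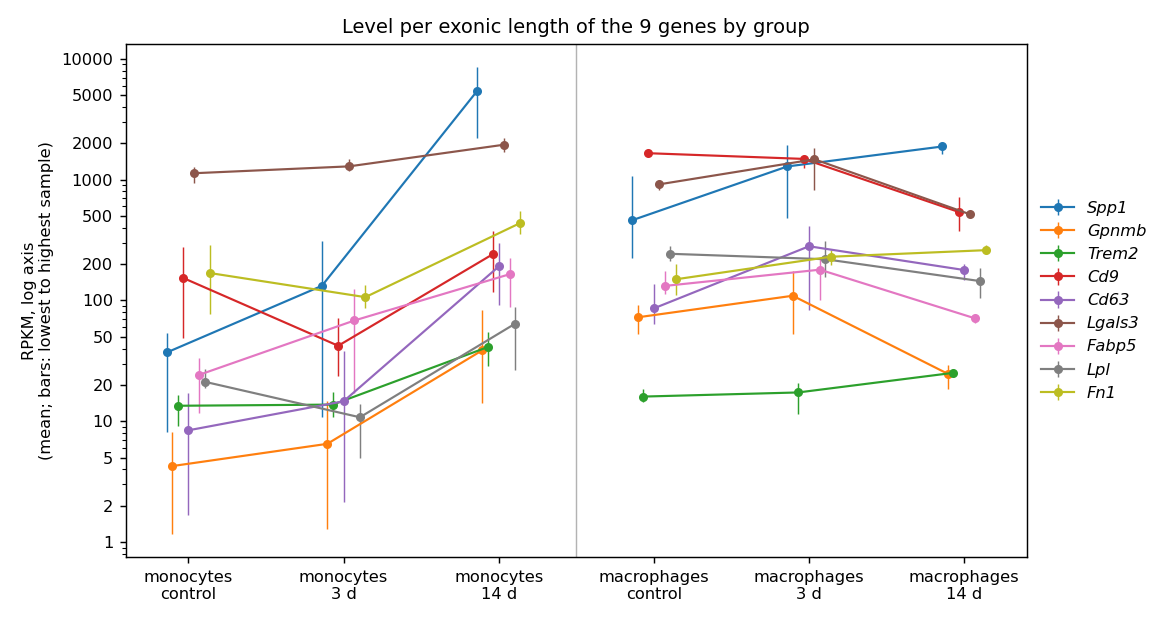
Mean RPKM on a log axis for each gene in the 6 groups, with bars from the lowest to the highest sample. *Spp1* passes *Lgals3* between 3 d and 14 d in monocytes, to 5407 RPKM, while *Cd9* in macrophages goes from 1655 RPKM in controls to 540.3 RPKM at 14 d.

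Within monocytes the 9 genes varied together. All 36 pairs had a positive Pearson r of log2 CPM over the 12 samples, from 0.485 (*Cd9* with *Fn1*) to 0.978 (*Spp1* with *Cd63*), with a median of 0.774. Over the 10 macrophage samples 19 of 36 pairs were positive, from -0.748 (*Trem2* with *Cd9*) to 0.965 (*Lgals3* with *Fabp5*), with all pairs positive among *Spp1*, *Trem2*, *Cd63* and *Fn1* and all pairs positive among *Gpnmb*, *Lgals3*, *Fabp5*, *Cd9* and *Lpl*. Across these groupings, made after the values were seen, r was positive only for *Cd63* with *Gpnmb*, *Lgals3* and *Fabp5*. These are descriptions over samples that share groups and scaling.

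Macrophage markers also moved with the genes in monocytes. Of 11 genes of monocyte-derived and interstitial macrophages 7 rose and 2 fell at 14 d, and the list summed to 1420 to 2577 CPM against 758 to 818 CPM in controls. *C1qb*, a complement subunit made by tissue macrophages, was at 18.1 to 70.0 CPM in controls, 23.4 to 135 CPM at 3 d and 380.0 to 875 CPM at 14 d, and the 3 d samples with the most *C1qb* (samples 3 and 4, at 135 and 85.7 CPM) had the most *Fabp5* of that group. *Ly6c2*, the monocyte antigen gene used in the gate, fell from 2490 to 3270 CPM in controls to 1320 to 1780 CPM at 14 d (log2 fold change -0.95 ± 0.14 SE, adjusted p = 0.000468). The Ly6Chi monocyte list did not move as a whole. Of its 11 genes 4 fell and 2 rose, *Fn1* of the 9 among the latter, with a median log2 fold change of -0.05. *Itgam*, the CD11b gene, was at 232 to 381 CPM in controls and 258 to 322 CPM at 14 d. Of the 13 resident alveolar macrophage genes 1 rose (*Chil3*, log2 fold change 0.84, which monocytes also express) and 3 fell, and *Siglecf*, *Krt79* and *Cidec* were at most 4.71, 5.58 and 1.06 CPM in the 14 d monocytes, against up to 28.2, 62.5 and 52.1 CPM in controls. Of 10 neutrophil genes 1 rose, with the list at 1031 to 1857 CPM against 571 to 844 CPM, and of 10 T, NK and B cell genes 6 fell. The part of the other markers in the rise of the 9 genes was not tested.

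**Figure D4:**
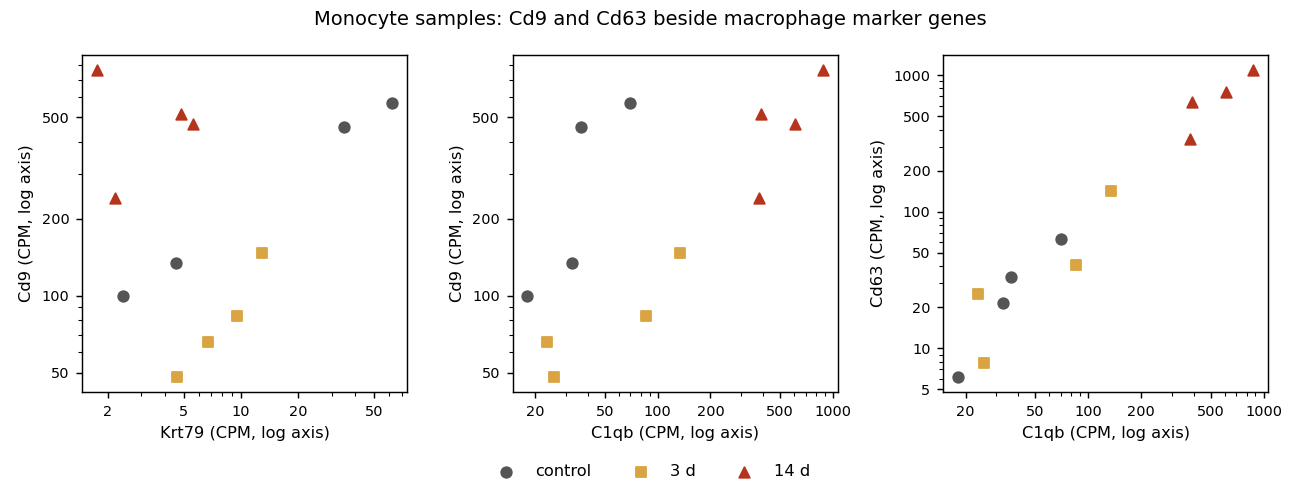
The 12 monocyte samples by CPM on log axes, with *Cd9* against *Krt79* (left), *Cd9* against *C1qb* (middle) and *Cd63* against *C1qb* (right). Controls 3 and 4 lie apart at 62.5 and 34.7 CPM of *Krt79*, while the 14 d samples reach like *Cd9* levels with at most 5.58 CPM of *Krt79* and hold the highest *C1qb*.

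Another 34 genes described for the same state were examined, with genes of the pathways around the 9. Beside their counts stand 3.13% of all genes called higher and 8.42% in either direction in 14 d monocytes, 39.4% higher and 22.9% lower in 14 d macrophages, and 8411 higher and 2642 lower of 22353 genes in 3 d monocytes. The genes named outside the 9 were chosen among those called, by largest change, so a reversal was unlikely from the start. Of their 2547 alternative values 225 lost the call and 0 reversed. In 14 d monocytes 10 rose and 1 fell (median log2 fold change 0.65 against 0.07 over all genes), led by *Arg1*, an arginine-degrading enzyme (7.66 ± 1.5 SE, adjusted p = 0.00846), the elastase *Mmp12* (5.23), the membrane protease *Mmp14* (5.13) and *Syngr1* (4.70). At 3 d 3 rose and 15 fell, with *Arg1* at 4.34 and *Mmp12* at 3.93 among the former and the lipoprotein *Apoe* at -2.74 and the fatty acid carrier *Fabp4* at -2.25 among the latter. In 14 d macrophages 10 rose and 15 fell (median -0.33 against 0.18), with *Arg1* at 7.85, the phospholipase *Pla2g7* at 4.84, *Apoe* at 3.61 and *Mmp14* at 2.60 in front. In 3 d macrophages 1 of 34 was called, the protease *Ctsk* (1.68 ± 0.32 SE, adjusted p = 0.0301).

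Of 11 receptor genes for osteopontin and fibronectin, 2 rose and 1 fell in 14 d monocytes: the syndecans *Sdc4* (log2 fold change 5.04) and *Sdc1* (1.56) and the integrin subunit *Itga4* (-1.37). In 14 d macrophages 6 of 11 rose and 2 fell, with *Sdc1* at 3.06, *Sdc4* at 2.37, the integrin subunit *Itgb7* at 1.22 and *Cd44* at -1.39. Of 11 partners of *Trem2* 0 rose in 14 d monocytes, where few genes of any kind did, and 3 fell: *Pik3ap1* (-1.52), *Plcg2* (-1.03) and *Inpp5d* (-0.64), which encode signaling proteins downstream of or opposing the receptor. In 14 d macrophages the TREM2 ligands *Clu* (3.66) and *Apoe* (3.61) rose, and its adaptor *Tyrobp* (-1.16) and *Pik3ap1* (-2.41) were among 4 that fell.

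Genes of lipid uptake, transport and storage, in which *Lpl* acts, were mostly not called in 14 d monocytes. Of 20, 2 rose and 1 fell, with the cholesterol exporter *Abca1* at 2.09 (adjusted p = 0.00012) and the lipase *Lipe* at -0.74. In 14 d macrophages 3 rose and 11 fell (median -0.72 against 0.18), with the exporter *Abcg1* at -2.51, the scavenger receptor *Cd36* at -2.29, the lipase inhibitor *Angptl4* at -1.56 and the carnitine transferase *Cpt1a* at -1.47. At 3 d 11 of 20 fell in monocytes and 1 rose, and none was called in macrophages. Other tetraspanins went against *Cd63* in monocytes for *Cd82* (-1.51) and *Cd81* (-1.30) and with it for *Tspan4* (2.14), 1 of 9 rising and 2 falling, and in macrophages 2 rose (*Tspan3* at 3.06 and *Tspan4* at 1.04) and 5 fell. The next list held 4 genes, for other galectins and for galectin-3 binding protein (*Lgals3bp*). Of these, *Lgals1* rose (1.13) and *Lgals3bp* (-2.13) and *Lgals9* (-1.20) fell in 14 d monocytes, and *Lgals8* (-1.39) and *Lgals3bp* (-1.35) fell in 14 d macrophages. The MiT/TFE factor genes *Tfec* (2.35) and *Mitf* (1.38) rose in 14 d monocytes, 2 of 4, and *Tfec* (-1.34) and *Tfeb* (-0.63) fell in 14 d macrophages. In monocytes at 3 d, where *Gpnmb* was not called, *Tfec* rose (1.73) and *Tfe3* (-0.81) and *Tfeb* (-0.81) fell.

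**Figure D5:**
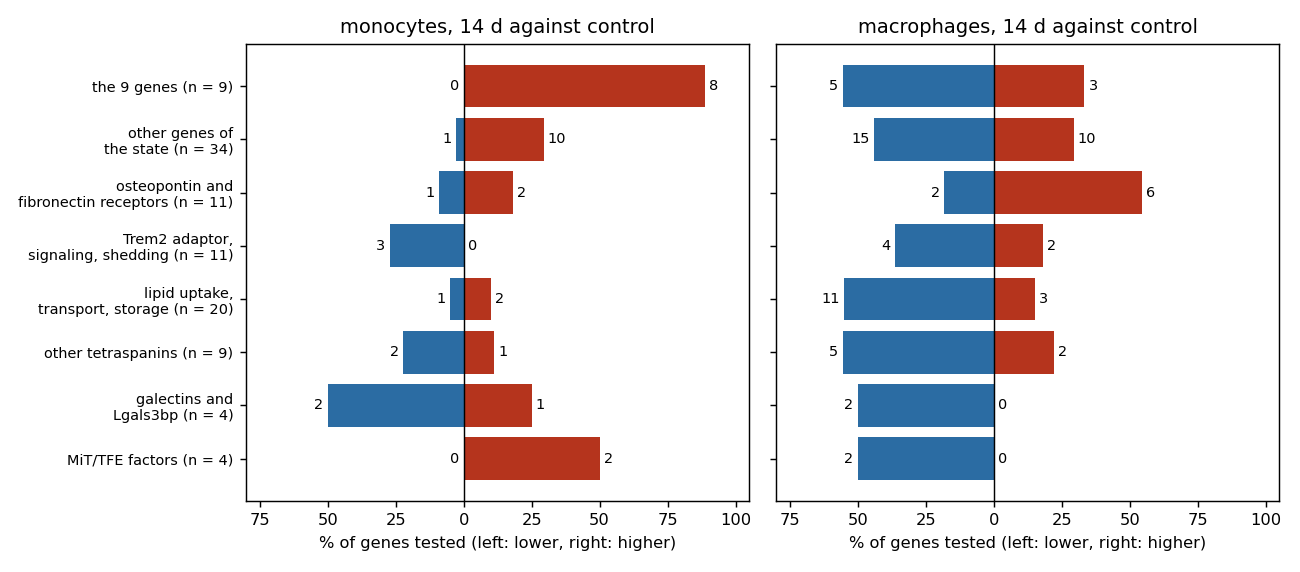
Share of the genes tested in each list that were called higher (red, right) or lower (blue, left) at 14 d against control, with the number at the end of each bar. The 9 genes stand at 8 higher and 0 lower in monocytes and at 3 higher and 5 lower in macrophages.

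The genes whose log2 CPM followed each of the 9 most closely were taken from the cell type where that gene varied most, over 12 monocyte samples (8075 genes) or, for *Lgals3*, 10 macrophage samples (9640 genes). *Spp1* was closest to the matrix protease gene *Mmp19* (Pearson r = 0.981), *Myo1e* (0.979) and *Cd63* (0.978), and *Cd63* to *C1qc* (0.983), *Mt1* (0.981) and *Spp1*. *Gpnmb* was closest to *Cd63* (0.966), *Mt1* (0.962) and *Lmna* (0.961), *Trem2* to *Pf4* (0.962), *Amdhd2* and *Gapdh* (both 0.953), and *Fabp5* to *Socs2* (0.988), *Dab2* (0.983) and *Vdr* (0.976). *Cd9* was closest to *Polr3d* (0.98), *Atp6v0d2* (0.973) and *Abcg1* (0.967), *Lpl* to *Slc7a8* (0.966), *Myof* (0.962) and *Rbm28* (0.946), *Fn1* to *Csf2rb2* (0.962), *Bnip3* (0.942) and *Chil3* (0.939), and *Lgals3* in macrophages to *Lmna* (0.977), *Eif4a1* (0.974) and *Eif3i* (0.972). All of these share the group differences of the samples.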

How the data were processed

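RNA from 22 samples was oligo(dT) selected and sequenced as paired-end reads. The authors deposited raw read counts per Ensembl gene, a table for each cell type, without normalization. The submitters' processing notes name the builds GRCm38 and mm10 with STAR 2.7.2c and 2.7.3a, featureCounts 1.6.3 and DESeq2 1.26.0 and 1.28.1, without giving their roles, and whether counting used strand is not given in the sources used here. Symbols and positions came from GENCODE on GRCm38 (55240 of 55421 monocyte and 31059 of 31134 macrophage identifiers matched), and promoter windows from RefSeq.

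Counts were analysed with edgeR 4.0.16 in R 4.3.3 (filterByExpr, TMM, robust quasi-likelihood test, two-sided). Each cell type was fitted over its 3 groups, and differences between cell types over all 22 samples and the genes counted in both. Standard errors are the absolute log2 fold change divided by the square root of F. Log2 CPM used a prior count of 2. Calls required an adjusted p under 0.05 together with a fold change above 1.5. Alternatives were DESeq2 1.42.0, other scalings and filters, fits of only the groups compared, a dispersion that was not robust, adjusted p alone, glmTreat, a replicate block and each sample left out. The procedure was tested on simulated data.

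The 9 genes and the other lists were chosen with earlier results of these data known. Of the other lists up to 4 called genes per comparison are named, those with the largest change at a mean log2 CPM above 3, and 3 genes most like each of the 9. Replicates are separate samples by their labels, and p-values measure the spread between them. No samples were duplicates (chi-square of the counts per degree of freedom 9.79 to 145 over 30 pairs). In controls, same-numbered monocyte and macrophage samples deviated together (r 0.143 to 0.239 over 4 pairs), although monocyte sample 4 with macrophage sample 3 reached 0.252. The control comparison with a replicate block shared by the cell types changed no call. The floor of 3 counts covers counting error only.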

Additional observations from a re-analysis of the deposited data

Results flagged for a closer look

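In 36 groups of 4 samples (9 genes, 3 monocyte groups and the control macrophages) 3 held a sample far from the other 3, and chance gives about 1 in 20. Control macrophage sample 2 was high for *Spp1* (1754 CPM, the others 368 to 500.0 CPM) and for *Fabp5* (629.7 CPM, the others 400.0 to 436 CPM). Control monocyte sample 1 was high for *Lpl* (283.5 CPM, the others 198 to 210 CPM).

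The change at 14 d differed between monocytes and macrophages, by the test of the difference itself, for *Spp1* (5.48 on the log2 scale), *Gpnmb* (5.08), *Trem2* (1.33), *Cd9* (2.63), *Cd63* (3.79), *Lgals3* (1.97), *Fabp5* (4.00) and *Lpl* (2.71), each as the monocyte log2 fold change minus the macrophage one. At 3 d it differed for *Fn1* (-1.16, beside -0.66 in monocytes and 0.62 in macrophages in the separate fits). These differences come from the fit of all 22 samples with its own scaling, so they do not exactly equal the separate values subtracted.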

How the results depend on the processing

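Of 2430 alternative values of the log2 fold changes of the 9 genes, 2150 kept direction and side of the threshold, 176 lost and 61 gained a call and 43 changed sign, and 21 of 306 alternative group means in CPM moved by more than 1 SD. The 14 d rise in monocytes (8 called) fell to 4 with no filter, with glmTreat or without control monocyte samples 3 and 4 (chosen after seeing the data), where the log2 fold changes of *Gpnmb* (4.55), *Cd63* (5.72) and *Fabp5* (3.27) were larger although not called. The 3 called at 3 d in monocytes fell to 1 with those samples left out, with a filter that kept mean log2 CPM above 1 or with glmTreat. In macrophages the 8 called at 14 d fell to 3 with glmTreat, and the 0 at 3 d became 3 with DESeq2 and 1 with no filter or a dispersion that was not robust. The 8 differences between cell types at 14 d became 5 with TMM factors from genes above a mean log2 CPM of 5. The 1 at 3 d became 2 with DESeq2 and 0 with library size, upper quartile or that TMM scaling, either filter setting, only the groups compared or glmTreat. The 5 between cell types at 14 d became 3 with library size or that TMM scaling. With 1 sample left out the number called was 1 to 3 (3 d monocytes), 4 to 8 (14 d monocytes), 6 to 9 (14 d against 3 d monocytes), 0 to 4 (3 d macrophages), 6 to 9 (14 d macrophages), 4 to 5 (14 d against 3 d macrophages), 0 to 1 and 8 to 9 (differences between cell types in the 3 d and 14 d response), and 6 to 8 and 4 to 5 (macrophages against monocytes in controls and at 14 d).

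The sign changes were all of values that were not called. In monocytes at 3 d they were *Trem2* (-0.28 with no filter, -0.14 without control samples 3 and 4, -0.16 to 0.091 with 1 sample left out), *Lgals3* (-0.13 with no filter), and *Gpnmb* (-0.19 to 1.06) and *Cd63* (-0.34 to 1.33) with 1 sample left out, both lowest without 3 d sample 3. In macrophages they were *Trem2* (-0.0087 to 0.38 with 1 sample left out) and *Lpl* (-0.44 to 0.066) at 3 d, reversed without 3 d sample 3, and, for 14 d against 3 d, *Fn1* (-0.044 with no filter, -0.077 to 0.25 with 1 sample left out) and *Spp1* (-0.066 to 0.79, reversed without 3 d sample 2). In the 3 d difference between cell types they were *Trem2* (-0.011 with DESeq2, -0.13 with no filter, -0.32 without control monocyte samples 3 and 4, -0.32 to 0.16 with 1 sample left out), *Gpnmb* (-0.67 to 0.67 with 1 sample left out), *Spp1* (-0.42 to 0.84, reversed without 3 d monocyte sample 3 or control macrophage sample 2) and *Cd63* (0.10 without control monocyte samples 3 and 4). Between cell types they were *Trem2* in controls (0.31 with library size, 0.034 with the TMM subset) and *Cd63* at 14 d (0.27 and 0.19).

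Scaling moved the share of called genes that were higher, from TMM to library size, from 63.3% to 84.1% (14 d macrophages), 64.5% to 87.0% (14 d against 3 d macrophages), 76.1% to 95% (3 d monocytes), 37.1% to 48.6% (14 d monocytes), 20.2% to 5.97% (14 d against 3 d monocytes), 54.1% to 18.7% and 81.2% to 92.8% (14 d and 3 d differences in response) and 54.7% to 70.8% and 62.8% to 87.5% (macrophages against monocytes in controls and at 14 d). Over all genes, a filter that kept mean log2 CPM above 1 left 2287 of 11053 calls in 3 d monocytes, 2354 of 10097 for 14 d against 3 d, 5720 of 13051 in 14 d macrophages, 4906 of 11806 for 14 d against 3 d, 1810 of 5002 and 4707 of 9839 for the 3 d and 14 d differences and 8755 of 16715 between cell types at 14 d, with fewer genes tested. No filter gave 19592 calls in 3 d monocytes and 16664 for 14 d against 3 d. glmTreat left 916 of 1883 in 14 d monocytes and 65 of 267 in 3 d macrophages, where DESeq2 gave 763, and 77 (without 3 d sample 1) to 1478 (without 3 d sample 2) were called with 1 sample left out. In 14 d monocytes 1157 were called without 14 d sample 3, and for the 3 d difference 2278 without 3 d macrophage sample 3. The causes were not tested.

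Same-numbered control and 14 d monocyte samples deviated together, with r of 0.088 to 0.525 (mean 0.282). Samples of different numbers reached 0.289 (control sample 2 with 14 d sample 1). For the other pairs of times same-numbered deviations had r of -0.169 to 0.228. With the replicate block the number called was 3, 8 and 9 in monocytes (3 d, 14 d and 14 d against 3 d), 0, 7 and 4 in macrophages, 1 and 8 for the differences at 3 d and 14 d, and 7 and 4 between cell types in controls and at 14 d. *Spp1* was not called with the block in 14 d macrophages (adjusted p = 0.0502) or between cell types at 14 d (adjusted p = 0.0565). The 1 difference called at 3 d was then that of *Cd9* (adjusted p = 0.03) in place of *Fn1* (adjusted p = 0.096). For the 14 d macrophages, with 4610720 to 6838893 counts each, 3 counts were up to 0.651 CPM.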
